A study of Mus musculus with 3 samples.

Results

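TIM-3, VISTA, SIRPA, LAG-3 and TIGIT are inhibitory immune receptors, and 10 genes of these axes were read in single cells of a mouse glioma: Havcr2, Lgals9, Vsir, Sirpa, Cd47, Lag3, Tigit, Cd96, Pvr and Nectin2. They were taken by symbol from a table of 50262 genes, and all 10 had at least 1 UMI (unique molecular identifier, 1 counted RNA molecule). Havcr2 encodes TIM-3, a receptor of exhausted T cells that myeloid cells also carry, and Lgals9 encodes galectin-9, one of its ligands. Vsir encodes VISTA, and Sirpa encodes the myeloid receptor that reads the CD47 "do not eat me" signal made from Cd47. Lag3 encodes an MHC class II binding receptor. Tigit and Cd96 encode lymphocyte receptors for the nectin-like protein CD155, made from Pvr, and TIGIT also binds nectin-2, made from Nectin2.

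Checkpoint receptors dampen the cell that carries them when they meet a ligand on a neighbour. They are best known on T cells and natural killer (NK) cells, but VISTA, TIM-3 and SIRPA are also normal products of myeloid cells, including microglia, the resident macrophages of the brain. Which cell makes each receptor and which makes its ligand decides where in a tumor the axis can act, and that is the question the sort and class comparisons address.

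The mice carried a conditional wild type human EGFR transgene switched on by Cre, a constitutive loss of Cdkn2a and a Lox-STOP-lox luciferase reporter on a mixed background, and tumors were started by stereotactic injection of a Cre lentivirus into the brain. The methods describe one vector that carries the EGFR ligand TGFa with Cre and one with Cre alone, and which of them was injected here is not given in the sources used here. Per the study's methods, the mice used were 12 to 16 weeks old and of both sexes. Each stage (early, medium, large, as the labels name them) was 1 tumor sample. Cells of 2 samples were pooled where few were recovered, which the study's methods state for each of its early samples. Stages had no replicate, so a difference between them cannot be told apart from a difference between samples or in pooling. Brain without cerebellum was dissociated, cleared of myelin and sorted by flow cytometry into CD45+ cells (leukocytes) and CD45- cells (tumor, glia, neurons and vessels). All groups carry the same alleles and had an injection of a Cre lentivirus, but whether its vector was the same for each is not given. A sort gate of this kind sets the mix of cell types in each fraction.

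The inDrop droplet libraries numbered 24, and 17781 cells passed filters (11185 CD45+ and 6596 CD45-). Summed depth was 5381839 to 10808099 UMIs per stage in the CD45+ sort and 6559876 to 10589403 in the CD45- sort, with medians of 1964 to 3079 UMIs per cell. Single CD45+ libraries held 62320 to 4226043 UMIs. Libraries of the same sample and sort shared 43.0 cell barcodes per pair, against 5.66 per pair for other libraries, so some cells may have been counted in more than 1 run. Keeping 1 cell per barcode in each sample and sort removed 1130 cells. Cells were clustered with the 10 genes and their partner genes left out of the gene set, and clusters are called by their markers: microglia-like (5588 CD45+ cells), macrophage or monocyte-like (2733), T cell-like (517), NK cell-like (49) and tumor clusters. The tumor clusters were set by the human EGFR transgene, whose UMIs were found in 84.8% of their 362 CD45- cells at the medium stage and 85.5% of 1082 at the large stage, but in 7.27% of 55 at the early stage. The early tumor sum therefore holds mostly cells without a transgene UMI. The calls on Vsir, Lag3, Sirpa, Havcr2 and Lgals9 against tumor cells are also given without it, and other results against tumor cells include it. Microglia-like cells had 8 of 8 microglia markers, with a summed level of 13316 to 18665 CPM (UMIs of a gene per 1000000 UMIs counted) over the 3 tumor samples.

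The genes lie on the mouse genome build GRCm38. Havcr2 is on chromosome 11 at 46454935 to 46481255 (plus strand), Lgals9 on chromosome 11 at 78962974 to 78984946 (minus), Vsir on chromosome 10 at 60346851 to 60372684 (plus) and Sirpa on chromosome 2 at 129592835 to 129632228 (plus). Cd47 is on chromosome 16 at 49800533 to 49915010 (plus), Lag3 on chromosome 6 at 124904361 to 124911705 (minus), Tigit on chromosome 16 at 43648867 to 43664146 (minus) and Cd96 on chromosome 16 at 46035657 to 46120251 (minus). Pvr and Nectin2 both lie on chromosome 7, at 19903578 to 19921160 and at 19716644 to 19750483 (both minus). Vsir lies opposite to Cdh23 and Pvr opposite to Gm16184 and Gm16251 without shared exon bases. Nectin2 shares 135 exon bases with the antisense gene Gm20512, so its counts are uncertain where strand was not used.

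The 250 bases upstream of the annotated start are shown for Havcr2 and Vsir, both higher in microglia-like than in T cell-like cells, and for Cd96, which was lower. The sequences are RefSeq's on GRCm38.p6, written 5′ to 3′ on the gene's strand. Capitals mark 2 short motifs searched on both strands, with a match on the other strand shown as its reverse complement. One is the PU.1-type core AGGAAGT, PU.1 being a master regulator of myeloid cells. The other is the core bound by RUNX factors, which act in T cells, and its letters are TGTGGT.
Havcr2, chr11:46454681-46454930, plus strand: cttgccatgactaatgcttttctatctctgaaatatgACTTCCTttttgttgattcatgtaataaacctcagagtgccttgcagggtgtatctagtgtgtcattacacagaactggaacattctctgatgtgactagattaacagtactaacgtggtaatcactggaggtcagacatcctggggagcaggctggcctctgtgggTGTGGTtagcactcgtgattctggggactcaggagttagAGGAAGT
Vsir, chr10:60346601-60346850, plus strand: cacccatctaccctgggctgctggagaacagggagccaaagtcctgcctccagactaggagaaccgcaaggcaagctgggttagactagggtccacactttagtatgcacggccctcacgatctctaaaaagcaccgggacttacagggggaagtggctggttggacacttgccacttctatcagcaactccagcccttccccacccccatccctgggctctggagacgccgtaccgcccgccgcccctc
Cd96, chr16:46120249-46120498, minus strand: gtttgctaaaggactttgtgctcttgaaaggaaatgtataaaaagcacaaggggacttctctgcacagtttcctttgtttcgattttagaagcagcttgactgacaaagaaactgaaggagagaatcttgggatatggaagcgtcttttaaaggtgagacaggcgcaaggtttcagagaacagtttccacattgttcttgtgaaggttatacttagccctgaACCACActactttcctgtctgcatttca
The Havcr2 window held the PU.1-type core 2 times, the nearer one starting 7 bases before the gene, and the RUNX core 1 time. The Cd96 window held the RUNX core 28 bases before the start and no PU.1-type core, and the Vsir window held neither. Of 32817 windows of this length, 7.69% held the PU.1-type core and 14% the RUNX core. A match is a description of letters and not a site, and no match says only that these letters are not in this window.

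VISTA, TIM-3, LAG-3, SIRPA and galectin-9 transcripts were concentrated in the CD45+ sort in every tumor sample, while the SIRPA ligand gene Cd47 did not differ between the sorts past the test. Levels are CPM of the summed sort, in the order early, medium, large. Vsir was at 1044, 411 and 655 in CD45+ cells and at 78.1, 38.3 and 10.3 in CD45- cells. Havcr2 was at 150, 76.5 and 112 against 7.16, 9.45 and 1.32. Sirpa was at 620, 283 and 521 against 67.5, 41.3 and 33.4. For these 3 receptors the lowest CD45+ sample lay above the highest CD45- sample. Lag3, at 75.9, 51.3 and 63.4 against 6.67, 7.16 and 0.850, and Lgals9, at 304, 278 and 334 against 32.6, 54.9 and 12.7, were separated in the same way. Cd47 was at 207, 242 and 196 against 340, 332 and 264, so that every CD45- sample lay above every CD45+ sample.

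In the edgeR quasi-likelihood fit across 18433 genes with the tumor sample as a block, 7 of the 8 genes tested were higher in CD45+ cells and 0 were lower, where 20.4% of all genes tested were called higher and 25.7% lower. The median log2 fold change was 3.72 over the 8 genes and -0.04 over all genes. Havcr2 differed by 4.81 ± 0.60 (log2 fold change ± SE, n = 3 pairs, edgeR adjusted p = 0.000858), Vsir by 4.70 ± 0.57 (adjusted p = 0.000804) and Lag3 by 4.30 ± 0.58 (adjusted p = 0.00122). Lgals9 followed at 3.77 ± 0.47 (adjusted p = 0.000889) and Sirpa at 3.68 ± 0.31 (adjusted p = 0.000167). The genes of the TIGIT ligands differed by less. Pvr, the CD155 gene, was higher by 1.49 ± 0.25 (edgeR adjusted p = 0.00244), from 61.2, 62.1 and 65.8 against 17.5, 36.0 and 38.0 CPM. Nectin2 was higher by 1.13 ± 0.34 (edgeR adjusted p = 0.0284), but its samples overlapped, at 11.3, 8.12 and 16.5 against 3.70, 7.77 and 10.3, and without the early or the large sample its adjusted p was 0.0896 and 0.0910. Cd47 differed by -0.17 ± 0.22 (edgeR adjusted p = 0.570). Cd96 and Tigit were too low to be tested. The CD45+ sort held 71 Cd96 UMIs where the other held 0, a difference of 23.1-fold taken at the floor of 3 counts over the group, with a 95% counting limit of 4.19 on the log2 scale. Tigit had 21 and 17 UMIs.

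**Figure D1:**
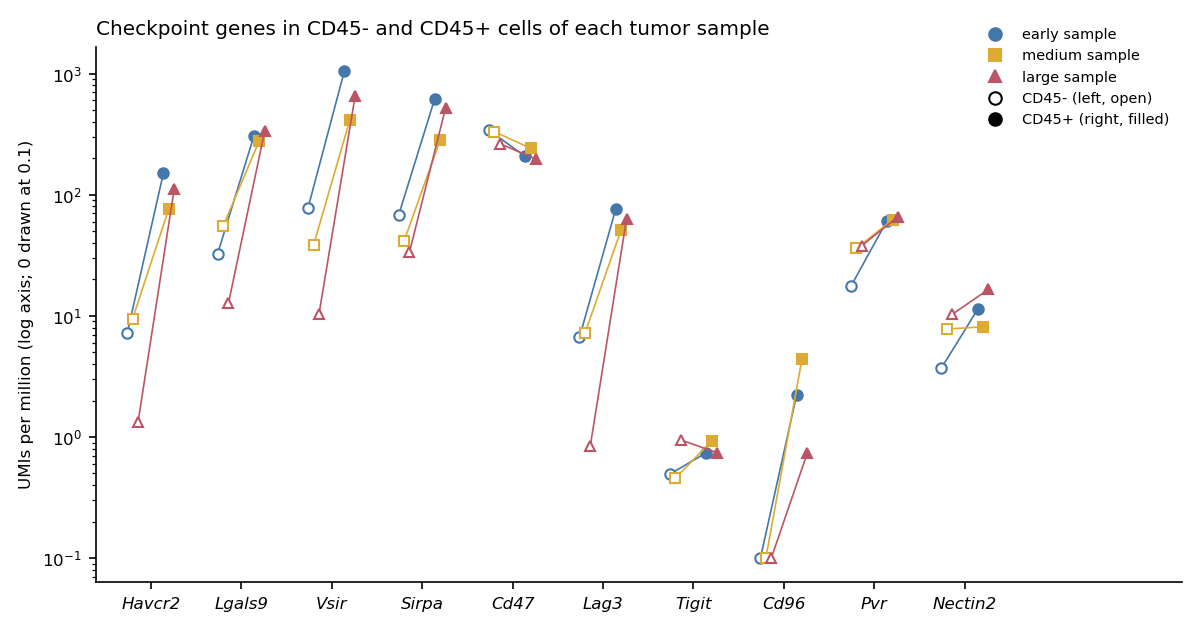
CPM (log axis, 0 drawn at 0.1) of the 10 genes in the CD45+ and CD45- cells of each tumor sample, with 1 point per sample. Havcr2, Vsir, Sirpa, Lag3 and Lgals9 lie apart between the sorts in all 3 samples, Cd47 lies higher in the CD45- cells of all 3 samples by a difference that did not pass the test, and Tigit has 21 and 17 UMIs in all.

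Within the CD45+ sort pooled over the samples, microglia-like cells were 50% of the cells and held 73.9% of the Vsir, 68.1% of the Havcr2, 67.1% of the Sirpa and 64.0% of the Lag3 UMIs. The samples differed widely in this, since microglia-like cells were 3838 of 5091 CD45+ cells early, 803 of 3983 medium and 947 of 2111 large. In the medium sample they held 1541 of 4000 Vsir, 271 of 744 Havcr2, 932 of 2755 Sirpa and 123 of 499 Lag3 UMIs. Macrophage or monocyte-like cells there held 1442, 353, 1234 and 244, more than microglia-like cells for each of these genes but Vsir. In the CD45- sort 324 cells, 4.91% of that sort, were microglia-like, and they held 72.5% of the Vsir, 70.1% of the Havcr2 and 59.1% of the Lag3 UMIs found there, but 38.9% of the Sirpa and 28.7% of the Lgals9 UMIs. Neuron-like cells held 22.6% of the Sirpa and tumor clusters 24.6% of the Lgals9 UMIs of that sort. Microglia-like cells were 224 of 2725 CD45- cells in the early, 69 of 1603 in the medium and 31 of 2268 in the large sample. Macrophage or monocyte-like cells were 13, 33 and 1 of them. In the CD45- sort Vsir fell from stage to stage, at 78.1, 38.3 and 10.3 CPM. Havcr2 (7.16, 9.45 and 1.32) and Lag3 (6.67, 7.16 and 0.850) were below early only at large. The part of these cells in the sort contrast was not tested. In sums over a whole sort, fewer cells of a type and less RNA per cell cannot be told apart, and levels within classes are given below.

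A Vsir UMI was seen in 80.1% of the CD45+ microglia-like cells, a Sirpa UMI in 71.0%, a Lgals9 UMI in 41.0%, a Havcr2 UMI in 19.4% and a Lag3 UMI in 14.7%. Over the 3 tumor samples microglia-like cells had the highest mean of all 16 classes ordered for Vsir (1144 ± 167 CPM, mean ± SD, n = 3), Sirpa (700 ± 108), Lgals9 (406 ± 51.0) and Havcr2 (168 ± 16.4), with samples that did not overlap those of the next class. For Vsir, the T cell-like clusters with myeloid RNA that are described further on came next (659 ± 181), and macrophage or monocyte-like cells (432 ± 57.1), neutrophil-like cells (402 ± 93.3) and border or perivascular macrophage-like cells (387 ± 25.7) stood lower and overlapped one another. For Havcr2 the next classes were macrophage or monocyte-like cells, at 99.8 ± 14.3, and the T cell-like clusters with myeloid RNA, at 82.4 ± 46.2. Sirpa, which neurons and astrocytes also carry, was at 411 ± 82.7 in macrophage or monocyte-like and 256 ± 25.1 in astrocyte-like cells. Lag3 was at 91.5 ± 14.2 in microglia-like, 54.6 ± 9.89 in macrophage or monocyte-like and 35.4 ± 42.1 in T cell-like cells. The microglia-like samples (76.3 to 104) did not overlap the macrophage or monocyte-like ones (44.5 to 64.3), and the T cell-like range (7.42 to 83.8) overlapped both.

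The ligand and lymphocyte receptor genes were ordered differently. The order covers classes with at least 20 cells in 2 or more samples, so dendritic cell-like, B cell-like and ependymal-like cells are not in it. Among the classes ordered, Cd47 was highest in neuron-like cells (511 ± 225 CPM, n = 3), NK cell-like cells (489 ± 88.8, n = 2) and oligodendrocyte-like cells (487 ± 33.9, n = 3), which did not differ beyond their spread. Cd96 was at 48.7 ± 6.46 in NK cell-like (n = 2) and 36.1 ± 14.9 in T cell-like cells (n = 3), again overlapping. It was found in 0 of 5588 microglia-like cells, where the floor of 3 would be 0.0537% of cells. Pvr was at 106 ± 24.3 in macrophage or monocyte-like and 102 ± 59.1 in endothelial-like cells, and at 53.8 ± 4.93 in the tumor clusters and 53.6 ± 6.32 in microglia-like cells. Nectin2 was low everywhere, at 18.7 ± 7.48 in microglia-like, 17.8 ± 10.7 in astrocyte-like and 11.1 ± 3.66 in tumor clusters. Tigit had at most 8 UMIs in any class and entered no class fit. It had 2 UMIs in T cell-like, 0 in NK cell-like, 3 in microglia-like, 4 in macrophage or monocyte-like and 4 in tumor clusters, and no order was read from it.

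**Figure D2:**
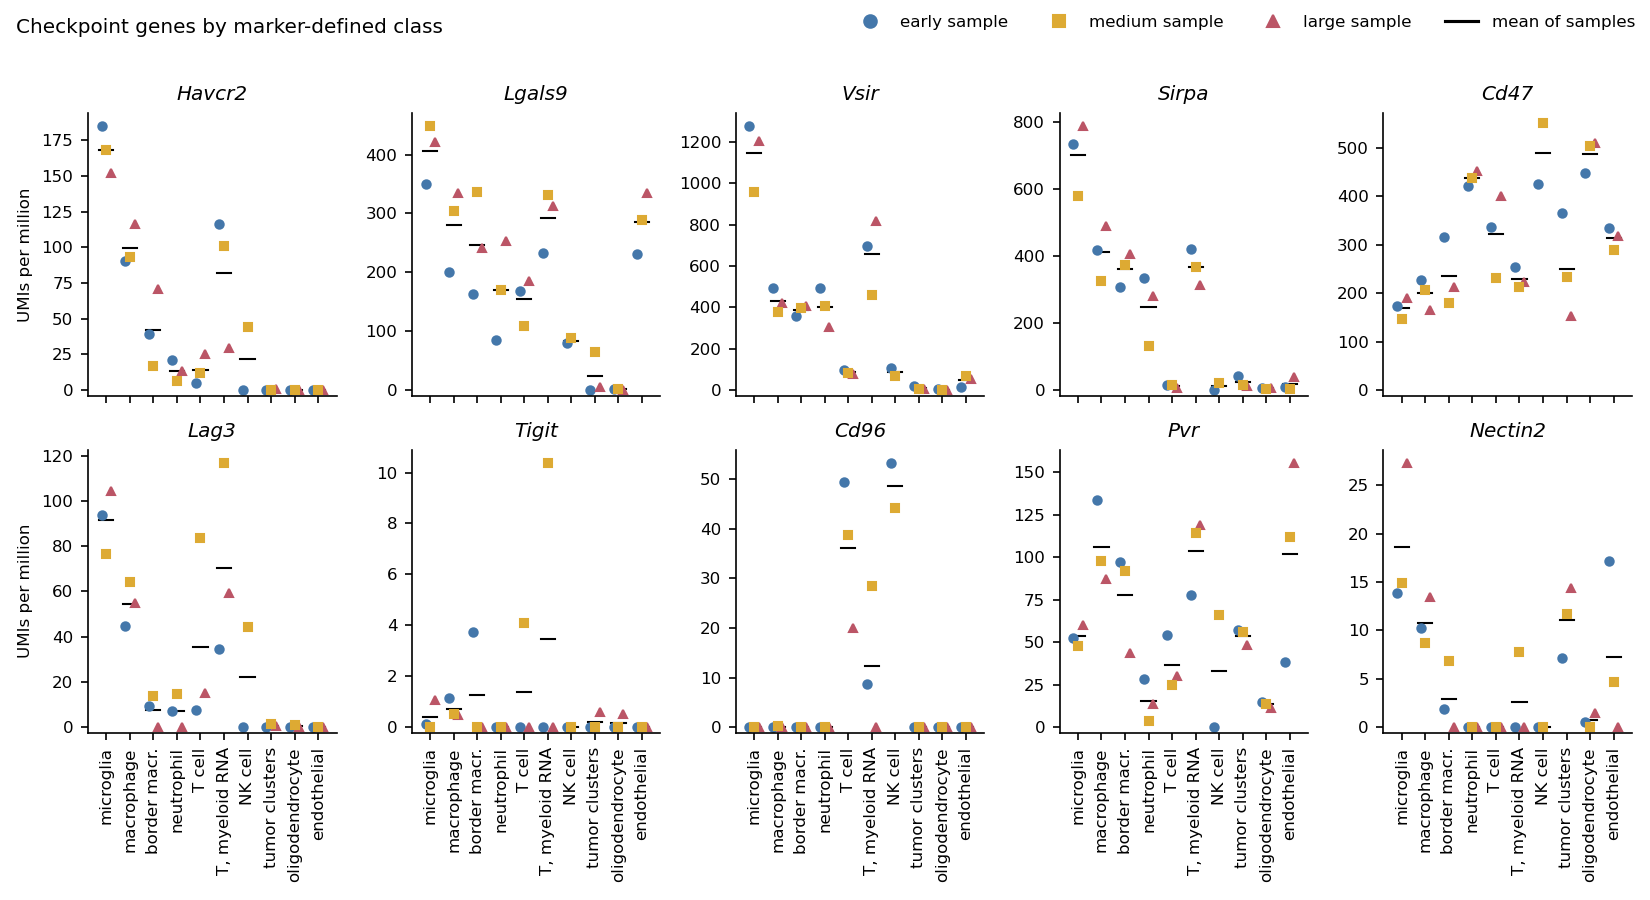
CPM of the 10 genes in 10 classes, with 1 point per tumor sample holding at least 20 cells of the class and a line at their mean. Microglia-like cells stand highest for Vsir, Sirpa, Lgals9 and Havcr2, and T cell-like and NK cell-like cells stand highest for Cd96.

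Against T cell-like cells, a class known for TIM-3, LAG-3 and CD96, microglia-like cells had more Sirpa, Vsir, Havcr2 and Nectin2, Lag3 was higher in 2 of the 3 samples, and Cd47 was lower. Cd96 was found in T cell-like cells alone of these 2 classes. Sirpa was at 734, 578 and 787 CPM in microglia-like cells (early, medium, large) and at 14.8, 14.3 and 5.01 in T cell-like cells. Vsir was at 1275, 956 and 1202 against 96.5, 81.7 and 80.1. Havcr2 was at 185, 168 and 152 against 4.95, 12.3 and 25. None of these ranges overlapped. In 1 joint edgeR fit of 5 classes across 14112 genes, 5 of the 9 genes tested were higher in microglia-like cells and 2 were lower, where 18.4% of all genes were called higher and 15.9% lower, and their median log2 fold change was 1.58 against 0.19 over all genes. Sirpa differed by 5.90 ± 0.43 (log2 fold change ± SE, edgeR adjusted p = 5.53e-12), Havcr2 by 3.93 ± 0.42 (adjusted p = 1.13e-08) and Vsir by 3.86 ± 0.33 (adjusted p = 1.55e-10). These 3 calls held in all 17 alternative settings, with the T cell-like clusters that hold myeloid RNA (described further on) included as the setting that gave the smallest folds for Sirpa, 2.32, and Vsir, 2.08, and for Havcr2, 1.98.

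T cell-like cells did show LAG-3 transcripts, in 1 sample above the others. Lag3 was at 93.9, 76.3 and 104 CPM in microglia-like cells and at 7.42, 83.8 and 15.0 in T cell-like cells (3, 41 and 3 UMIs), so that in the medium sample the T cell-like value was the higher one. The difference was 1.58 ± 0.44 (edgeR adjusted p = 0.00762). The call was lost in 5 of 17 alternatives: without the early sample (adjusted p = 0.142), without the large sample (0.0723), with no block (0.0551), with cells classed one by one (0.105) and with the classes fitted alone (0.0812). Cd96 had 20, 19 and 4 UMIs in T cell-like cells and 0 in microglia-like cells, 150-fold lower in the latter at the floor of 3 counts, with a 95% counting limit of -6.86 on the log2 scale. It passed the filter on low counts through its lymphocyte sums, so it is given by its counts and not by a test, and it is 1 of the 2 genes counted as lower. Nectin2 had 185 UMIs in microglia-like and 0 in T cell-like cells, 5.91-fold higher at that floor with a counting limit of 2.25 on the log2 scale (edgeR adjusted p = 0.000146). Cd47 was at 174, 146 and 190 against 337, 231 and 401, a difference of -0.76 ± 0.29 (edgeR adjusted p = 0.0441) that was lost in 9 of 17 alternatives, among them DESeq2, no block, 1 cell per barcode and the omission of any 1 of the 3 samples. Lgals9 (349, 448 and 421 against 168, 108 and 185) differed by 1.51 ± 0.69 and Pvr by 0.69 ± 0.36, and neither passed (edgeR adjusted p = 0.131 and 0.145).

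Shares of cells gave the same order after cells with at least 1000 UMIs were thinned to 1000 UMIs and the other cells were left out. Vsir was then seen in 62.6% of microglia-like, 27.0% of macrophage or monocyte-like, 7.71% of T cell-like and 0.555% of tumor cells. Sirpa was seen in 49.0%, 28.1%, 1.42% and 2.01% of the same classes, and Havcr2 in 12.3%, 7.76%, 1.42% and 0.0694%. Before thinning 10 of 517 T cell-like cells (1.93%, exact 95% interval 0.931 to 3.53%, median 1746 UMIs) had a Havcr2 UMI. Of 242 B cell-like cells, a class that should lack TIM-3, 2 had one (0.826%, up to 2.95%, median 2746), with 10 UMIs between them, and the difference was not tested.

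NK cell-like cells numbered 49, and only the early and medium samples, with 20 and 24 cells, entered the test. Of 9 genes tested 3 were higher in microglia-like cells and 1 was lower, where 9.42% of all genes were called higher and 2.49% lower, with a median log2 fold change of 3.32 against 1.51 over all genes. That shift of all genes moved to 0.67 with library sizes alone. The test was against 0, so the fitted folds and calls here include the shift. Vsir had 7 UMIs in these NK cell-like cells, at 107 and 66.2 CPM, and differed by 4.71 ± 0.51 (edgeR adjusted p = 7.59e-08). Its pooled log2 ratio, scaled by library sizes alone, was 3.85 (95% counting interval 2.81 to 5.16). Sirpa had 1 UMI in these NK cell-like cells and Havcr2 had 2, so their pooled log2 ratios of 5.90 (95% counting interval 3.42 to 11.20) and 2.87 (1.02 to 5.92) are given in place of the fitted folds, and the edgeR adjusted p was 1.82e-07 and 0.00121. With cells classed one by one, NK cell-like cells had a mean of 329 CPM for Vsir and 216 for Sirpa. The smallest fitted folds over the alternatives were 2.43 for Vsir, 2.18 for Sirpa and 2.34 for Havcr2. With doublets kept, or with 1 cell per barcode, only 1 NK cell-like sample remained and the adjusted p of Havcr2 was 0.0502 and 0.0925. Cd96 had 4 UMIs in NK cell-like cells and 0 in microglia-like cells, 184-fold lower at the floor with a counting limit of -6.51 on the log2 scale, and as the gene counted as lower here it too passed the filter through the lymphocyte sums and is given with no test. Lag3 (adjusted p = 0.0542), Lgals9 (0.122), Cd47 (0.349), Pvr (0.237) and Nectin2 (0.190) did not pass in the edgeR fit. Cd47 was at 173 CPM in microglia-like and 495 in NK cell-like cells, on 1971 and 41 UMIs. That is a pooled log2 ratio of -1.52 (95% counting interval -1.96 to -1.04), which has no check across samples. On the other side, the pooled ratios of Lag3 and Lgals9 were 1.95 (0.09 to 5.00) and 2.15 (1.11 to 3.47).

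In tumor clusters the receptor genes were far below their microglia-like level, while the CD47 and CD155 genes did not differ past the test. Vsir was at 21.5, 4.77 and 4.2 CPM (early, medium, large), Sirpa at 43.0, 15.6 and 12.9, and Havcr2 had 3 UMIs in 1499 cells. Cd47 was at 365, 234 and 154, Pvr at 57.3, 55.9 and 48.1 and Nectin2 at 7.17, 11.7 and 14.4. Of 9 genes tested 6 were higher in microglia-like cells and 0 lower, where 20.3% of all genes were called higher and 21.4% lower, with a median log2 fold change of 4.55 against -0.01 over all genes. Vsir differed by 8.14 ± 0.42 (edgeR adjusted p = 2.94e-15), Lag3 by 7.51 ± 0.63 (adjusted p = 4.90e-10) and Sirpa by 5.83 ± 0.39 (adjusted p = 2.44e-13). Lag3 had 6 UMIs in tumor clusters, and its pooled log2 ratio was 7.14 (95% counting interval 6.02 to 8.59). For Havcr2 the pooled log2 ratio was 9.07 (95% counting interval 7.52 to 11.35, edgeR adjusted p = 2.01e-14). These 4 calls held without the early sample, whose tumor sum was mostly cells without the transgene. Lgals9 differed by 4.55 ± 0.81 (edgeR adjusted p = 0.00132) and was lost without it (adjusted p = 0.0841). The CD47 and CD155 genes did not pass, Cd47 at 0.05 ± 0.29 (edgeR adjusted p = 0.902) and Pvr at 0.44 ± 0.30 (adjusted p = 0.255). Both results include the early sum. For Cd47 the later samples went opposite ways, at 234 CPM against 146 in microglia-like cells at medium and 154 against 190 at large. Nectin2, at 1.09 ± 0.43 (edgeR adjusted p = 0.0437), lost its call in 11 of 16 alternatives. Cd96, 1 of the 9 genes counted as tested and in the median, had 0 UMIs in both classes and so no difference to read.

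Against macrophage or monocyte-like cells, their nearest relatives, microglia-like cells differed past the test in 2 of these genes. The classes are not cleanly apart, since macrophage or monocyte-like cells had 8 of 8 microglia markers at a summed 3915 to 6066 CPM, beside 13316 to 18665 in microglia-like cells and 5745 to 6911 for their own markers, and the part of this in the comparison was not tested. Of the receptor genes Vsir alone passed the test. Vsir was at 1275, 956 and 1202 CPM in microglia-like and 493, 380 and 422 in macrophage or monocyte-like cells, a difference of 1.24 ± 0.28 (edgeR adjusted p = 0.00326). Pvr went the other way, at 52.6, 47.8 and 60.3 against 133, 97.7 and 87.1, a difference of -1.13 ± 0.28 (edgeR adjusted p = 0.00812). Neither pair of ranges overlapped, but without the medium sample the adjusted p was 0.109 for Vsir and 0.0780 for Pvr. Of 9 genes tested 1 was therefore higher and 1 lower, where 3.37% of all genes were called higher and 6.48% lower, and their median log2 fold change was 0.60 against -0.01. Havcr2 at 0.61 ± 0.28, Sirpa at 0.60 ± 0.29, Lag3 at 0.67 ± 0.36 and Cd47 at -0.40 ± 0.28 did not pass (edgeR adjusted p = 0.179, 0.211, 0.279 and 0.439), although the samples of Havcr2, Sirpa and Lag3 did not overlap either. Lgals9 at 0.37 ± 0.64 and Nectin2 at 0.62 ± 0.41 did not pass (edgeR adjusted p = 0.798 and 0.398), and Cd96 had 1 UMI in macrophage or monocyte-like cells and 0 in microglia-like cells. The class held 3 clusters that differed among themselves. The cluster led by Ccr2, a marker of recruited monocytes, was at 11.5 Lag3, 200 Vsir and 206 Sirpa CPM with 167 Pvr and 366 Cd47. The cluster led by Spp1 and Arg1 was at 55.8, 440 and 512 with 78.7 and 135, and the cluster led by Cxcl9 at 82.8, 478 and 377 with 83.4 and 167. Microglia-like clusters ranged from 805 to 1382 for Vsir, from 133 to 214 for Havcr2 and from 28.3 to 67.3 for Pvr.

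**Figure D3:**
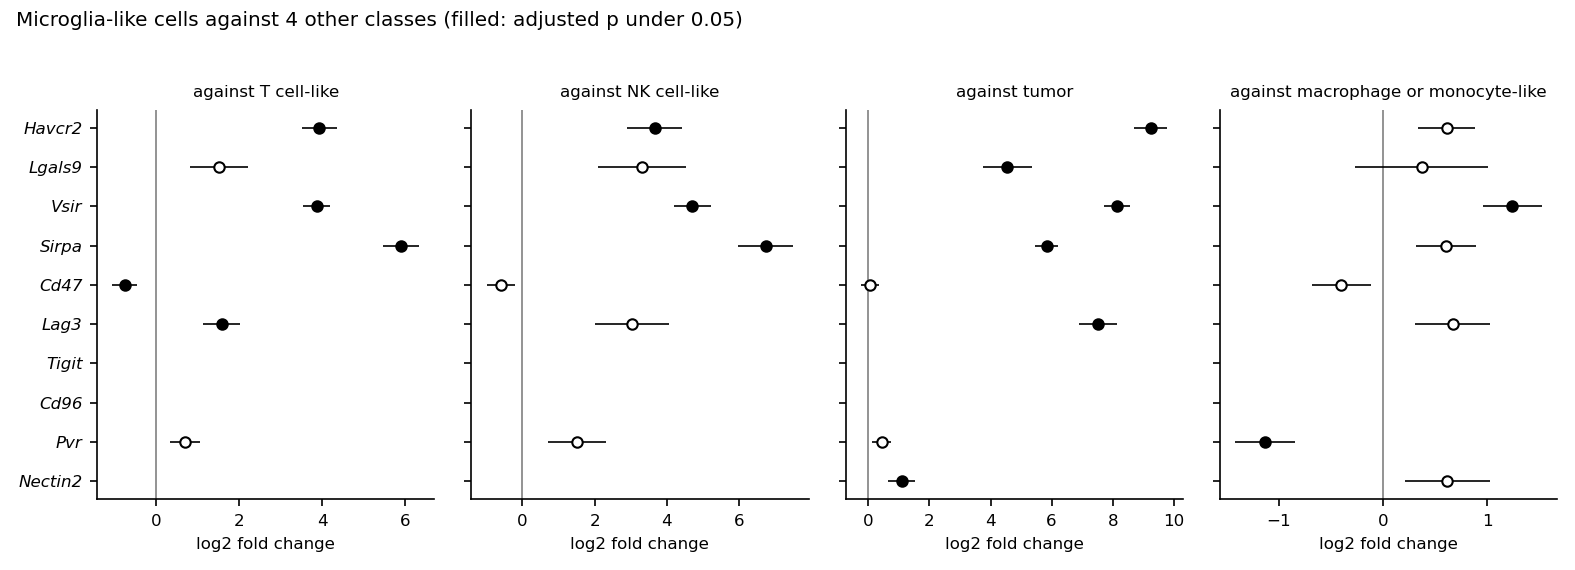
Log2 fold change of microglia-like cells against 4 classes, with bars of 1 SE and filled points where the edgeR adjusted p was under 0.05. Genes with no UMI in 1 of the classes, such as Cd96, are not drawn. Vsir is filled in all 4 panels, Sirpa and Havcr2 in 3, and Pvr only against macrophage or monocyte-like cells.

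A further 281 CD45+ cells formed 2 clusters led by T cell genes that also held myeloid RNA, and they were kept out of the T cell-like class. They were set apart by microglia or macrophage markers, so myeloid genes above the T cell-like level are tied to that choice. C1qa, a complement gene of microglia and macrophages, had a UMI in 90.3% and 98.5% of their cells. Their summed microglia markers were at 4389 to 7940 CPM over the 3 samples (8 of 8 detected), against 188 to 250 in T cell-like cells (7 of 8, Sall1 at 0). Their summed T cell markers were at 1204 to 1511, against 2889 to 3348. In these cells Vsir was at 576 CPM, Sirpa at 379, Havcr2 at 99.2 and Lag3 at 83.2 (pooled over the samples). Each was above the T cell-like level of the same tumor sample, Lag3 at 34.4, 117 and 59.4 against 7.42, 83.8 and 15.0 CPM, and the part of the myeloid RNA in these levels was not tested. Among T cell-like clusters with little myeloid RNA, the one led by Xcl1 and Ifng had the highest share with a Lag3 UMI, 15.0% of 127 cells. The one led by Gzmb and Cd8a had the highest share with Cd96, 14.3% of 105 cells.

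**Figure D4:**
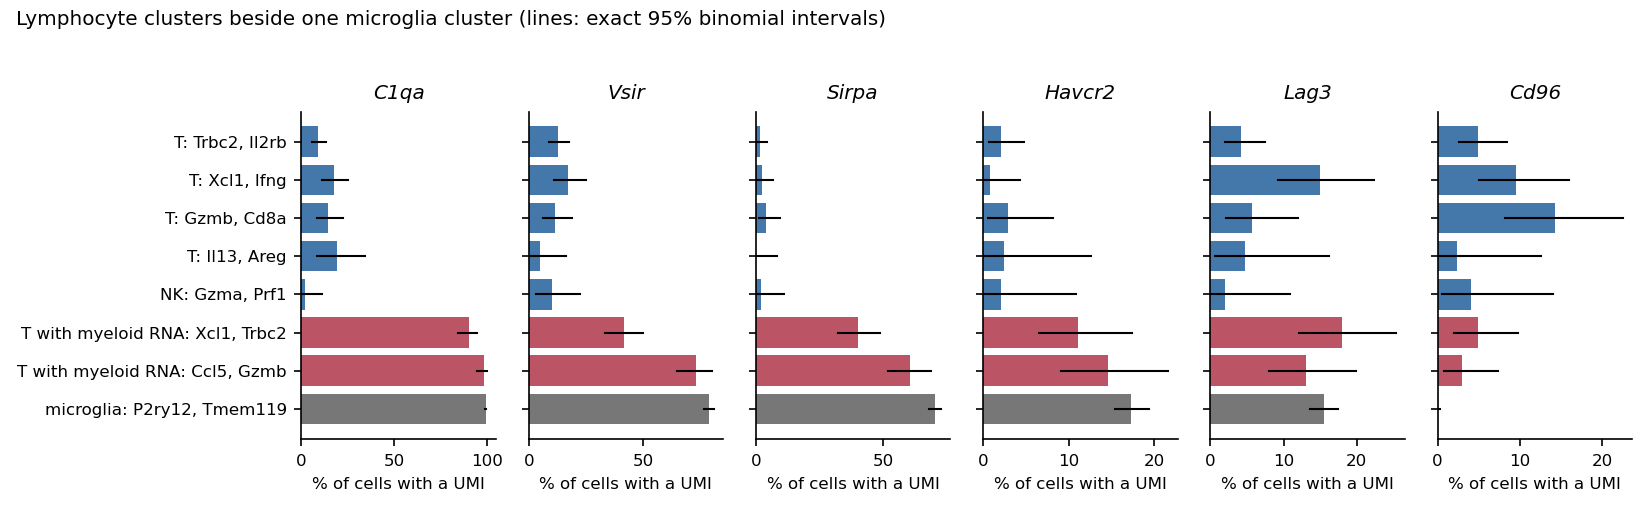
Percent of cells with a UMI of C1qa, Vsir, Sirpa, Havcr2, Lag3 and Cd96 in 4 T cell-like clusters, the NK cell-like cluster, 2 T cell-like clusters with myeloid RNA and 1 microglia-like cluster, with exact 95% binomial intervals. The clusters with C1qa in 90.3% and 98.5% of cells, which were set apart by myeloid markers, are also the lymphocyte clusters with the highest Vsir, Sirpa and Havcr2 shares.

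Between stages there was 1 tumor sample each, so ratios have counting intervals only and no test. In microglia-like cells Vsir and Sirpa were lowest at the medium stage. The log2 ratio of medium to early was -0.42 (95% counting interval -0.49 to -0.34) for Vsir and -0.34 (-0.44 to -0.24) for Sirpa, and that of large to medium was 0.33 (0.24 to 0.42) and 0.44 (0.32 to 0.56). Technical libraries with at least 50 microglia-like cells overlapped for Vsir, at 1000 to 1372 CPM early and 858 to 1101 medium. For Sirpa they did not, at 705 to 775 and 550 to 593. With cells classed one by one the samples of Vsir lay closer together, from 1139 to 1289 CPM, where they were from 956 to 1275 by cluster. Those of Sirpa were then from 608 to 772 CPM, and from 578 to 787 by cluster. Lgals9 was higher at medium than early by 0.36 (0.24 to 0.48), and Havcr2 was lower at large than early by -0.28 (-0.47 to -0.10). Macrophage or monocyte-like cells changed in make-up between the samples: 187 of 357 early, 502 of 1681 medium and 644 of 695 large cells lay outside the Cxcl9-led cluster. As a class they had the same direction for Lgals9, at 0.60 (0.37 to 0.83), and for Vsir and Sirpa, at -0.38 and -0.36, and each of their 3 clusters had these directions too. Pvr was lower there by -0.45 (-0.75 to -0.14, but 0.034 with cells thinned to equal depth) at medium and -0.62 (-0.96 to -0.27, but -0.21 thinned) at large, both against early. At large it was lower than early in the Ccr2-led cluster (128 against 213 CPM) but not in the Spp1-led (81.3 against 79.1) or the Cxcl9-led one (102 against 87.3). In T cell-like cells the log2 ratio of Lag3 from early to medium was 3.50 (1.85 to 5.83), resting on 3 and 41 UMIs. In tumor clusters Lgals9 was at 65.0 CPM at the medium and 5.55 at the large stage, a log2 ratio of -3.55 (-4.11 to -3.02), and Cd47 was lower by -0.60 (-0.75 to -0.45).

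**Figure D5:**
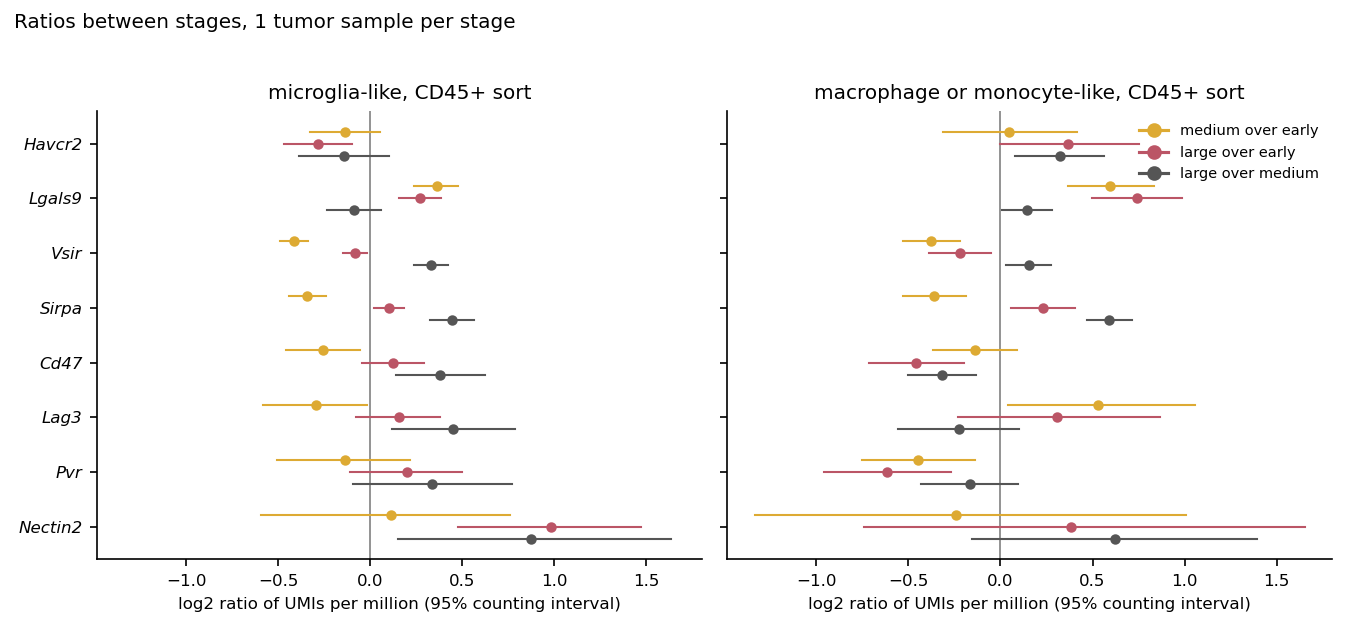
Log2 ratios of CPM between stages for 8 genes in the microglia-like class and in the macrophage or monocyte-like class, with 95% counting intervals and 1 tumor sample per stage. Vsir and Sirpa lie below 0 for medium over early in both classes, and Lag3 lies at -0.30 in microglia-like cells (0.65 within run 1) and 0.53 in the other class.

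A list of 27 partner genes of the same axes (other ligands, co-receptors and signalling proteins) was read in the same fits. In CD45+ against CD45- cells 14 of 23 tested were higher and 4 lower, where 20.4% and 25.7% of all genes were called. Selplg, whose product PSGL-1 is a VISTA ligand, was higher by 4.62 ± 0.49 (log2 fold change ± SE, edgeR adjusted p = 0.000451), and Ptpn6, the SHP-1 phosphatase recruited by SIRPA, by 5.27 ± 0.48 (adjusted p = 0.000280). Igsf11, a VISTA ligand gene, was lower by -2.99 ± 0.22 (edgeR adjusted p = 0.000126). Nectin1 and Nectin3, adhesion genes of the nectin family, were lower by -2.65 ± 0.23 and -2.70 ± 0.32 (edgeR adjusted p = 0.000186 and 0.000534). The others that were higher were the MHC class II chain gene H2-Ab1 (log2 fold change 5.01), Cd4 (4.40), the galectin-3 gene Lgals3 (3.46), Crtam (3.06), Nectin4 (2.70), the TIM-3 ligand gene Ceacam1 (1.74), the phagocytic receptor gene Lrp1 (1.24) and the calreticulin gene Calr (1.02). The SIRP family genes Sirpb1a, Sirpb1b and Sirpb1c, and Timd4, are also among the 14. They passed the filter on low counts through the CD45+ sums, so they are given with no test. Sirpb1a had 71, 127 and 34 UMIs in CD45+ cells (early, medium, large) and 0, 1 and 4 in CD45- cells. Timd4 had 47, 55 and 25 in CD45+ cells, and Timd4 and Sirpb1c had 0 in CD45- cells. The Sirpb1 genes are close relatives of one another and of Sirpa, and their counts are uncertain where reads could be split between them. Ptpn11 was lower by less than 1 on the log2 scale. Of the direct binders, Fgl1, Hmgb1 and Thbs1 did not pass, and Cd226, Clec4g and Pvrig were too low to be tested.

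Among classes, microglia-like cells had 9 of 24 partners higher and 4 lower than T cell-like cells (18.4% and 15.9% of all genes) and 6 higher and 0 lower than NK cell-like cells (9.42% and 2.49%). They had 7 higher and 4 lower than tumor clusters (20.3% and 21.4%) and 1 higher and 8 lower than macrophage or monocyte-like cells (3.37% and 6.48%). Against T cell-like cells the higher partners were Lrp1 (log2 fold change 5.97), the adhesion gene Cadm1 (5.45), Ceacam1 (3.71), H2-Ab1 (2.67), Selplg (2.47), Calr (1.38), Ptpn6 (1.20), Nectin4, with 159 UMIs against 0, and the CD47 ligand gene Thbs1, with 248 UMIs against 1. The lower ones were Ptpn11 (-1.16) and 3 lymphocyte genes given by counts alone: Cd4 had 252 UMIs in T cell-like and 13 in microglia-like cells, Crtam 51 and 12, and Cd226, the activating receptor for CD155, 33 and 2. Against NK cell-like cells Selplg (2.89), Ptpn6 (2.38) and Calr (1.99) were higher, as were Lrp1, Cadm1 and Ceacam1, which had 0 UMIs in NK cell-like cells.

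The 1 partner higher than in macrophage or monocyte-like cells was Selplg, by 1.89 ± 0.31 (edgeR adjusted p = 0.000101), and it was also higher than in tumor clusters, by 9.10 ± 0.47 (adjusted p = 2.94e-15). The genes lower than in macrophage or monocyte-like cells were H2-Ab1, part of the LAG-3 ligand, by -3.58 ± 0.79 (edgeR adjusted p = 0.0214), Thbs1, by -2.20 ± 0.31 (adjusted p = 1.22e-05), Nectin1 (-2.95), Cd4 (-2.38), Sirpb1a, Sirpb1b, Sirpb1c and Timd4. The last 4 are given by their UMIs and not by a test. These were 2, 5, 6 and 0 in microglia-like and 144, 201, 283 and 58 in macrophage or monocyte-like cells. Against tumor clusters Ptpn6 (6.73), H2-Ab1 (4.10), Nectin4 (4.04), Thbs1 (2.01), Lrp1 (1.13) and Ceacam1 (1.08) were the others that were higher. Igsf11 was lower than in tumor clusters by -3.67 ± 0.50 and Nectin3 by -4.49 ± 0.75 (edgeR adjusted p = 5.42e-07 and 1.97e-05), as were Nectin1 (-3.70) and Hmgb1 (-0.73). In no class comparison did Lgals3 or Pvrig pass, and Fgl1 and Clec4g were too low to be tested.

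Over 44 sums of sample and class, the genes whose log2(CPM + 1) followed each checkpoint gene most closely were found among 14343 genes. They are a description, since the sums share depth and cell type. Havcr2 was followed by Trem2 (Pearson's r = 0.95), Lair1 (0.94) and Csf1r (0.94). Vsir was followed by Nckap1l (0.89), Cd83 (0.89) and Cx3cr1 (0.88), and Sirpa by Hpgds (0.89) and Slc7a8 (0.85). For Cd96 the nearest were Gimap7 (0.97), Tcrg-C2 (0.97) and Trbc1 (0.96). Lgals9 was followed by Srgn (0.90), Parp14 (0.89) and Nfkbia (0.88), and Lag3 by H2-Oa (0.86), Parvg (0.84) and Ccr6 (0.84). The ligand genes had looser matches. For Cd47 they were Krit1 (0.66), Malat1 (0.64) and Kmt2a (0.64), for Pvr Mri1 (0.70), Znrd1 (0.69) and Sertad1 (0.68), and for Nectin2 Kdelr2 (0.72), Serpine2 (0.72) and Cpq (0.68). For Tigit, at few UMIs, they were Penk, Camk2d and Cacng2 (each 0.52).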

How the data were processed

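Gene counts per cell were deposited by the authors as raw UMI counts. Per the study's methods they were made from inDrop libraries with RapMap in bcbio-nextgen against a mouse transcriptome. The counts also cover the human EGFR transgene, and the labels name the build mm10. The deposited annotation of the libraries gave run, barcode, sort and stage, which set the groups. The methods state removal of ambient RNA and doublets, but not whether that came before deposit.

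Cells with at least 500 UMIs, 500 genes and at most 20% mitochondrial UMIs were kept (17894), and Scrublet called 113 doublets (0.631%), which were removed. Cells were clustered with scanpy 1.11.5 and leidenalg 0.10.2 (2000 variable genes, 40 components, resolution 1), without the 10 genes and their partners, into 39 clusters; lymphocytes were clustered again. A cluster was named from at least 3 markers, and 499 cells stayed unnamed. Raw counts were summed per tumor sample and sort, or per tumor sample and class with at least 20 cells (leukocytes from the CD45+ sort, tumor clusters from the CD45- sort), and tested with edgeR 4.0.16 in R 4.3.3 (quasi-likelihood, TMM factors, filterByExpr, two-sided, Benjamini-Hochberg over all genes tested, threshold 0.05). The tumor sample was a block in every fit. The pairing comes from the labels, since both sorts of a stage come from the same tumor sample, and the deviations of the paired sums correlated at 0.280 to 0.384 over 18433 genes. The sort fit had 6 sums and 2 residual degrees of freedom, the class fit 14 sums and 7. Each gene was described by CPM (UMIs of the gene per 1000000 UMIs) of summed counts. Exact counting and binomial intervals are 95% and, like the floor of 3 counts, cover counting error only. The p-values measure how far the differences between sorts or classes varied over the 3 tumor samples, with the sample itself taken out as a block. In the class fit this spread was shared over the 5 classes, and NK cell-like cells entered from the early and medium samples only. Genes of like pattern were ranked by correlation over sums of at least 50 cells with a mean of at least 5 CPM. The 10 genes, the partner list and the cell type markers were chosen with earlier results of these data known. All 10 genes are named for each comparison, by their UMIs alone where they were not tested or not testable, and partners where they passed with a log2 fold change of at least 1 in size or bind one of the 10 directly, where binders that did not pass in a class comparison are not all listed. The fitting script was tested on simulated data. Alternatives were DESeq2 1.42.0, other scalings and filters, other cell sets and class rules, no block, and each sample left out. Promoter windows were matched by symbol to RefSeq on GRCm38.p6, and 7 of the 10 genes had an entry. Some items, among them an allele of the model and a gene of like pattern, are not reported here.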

Additional observations from a re-analysis of the deposited data

Results flagged for a closer look

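Between the medium and the early stage, Lag3 went in opposite directions in the related myeloid classes, with a log2 ratio of -0.30 (0.65 within run 1) in microglia-like and 0.53 in macrophage or monocyte-like cells. Between the large and the medium stage, Cd47 did so too, at 0.38 in microglia-like and -0.32 in macrophage or monocyte-like cells. The make-up of the latter class moved with these ratios, with 187 of 357 early, 502 of 1681 medium and 644 of 695 large cells outside the Cxcl9-led cluster. Within that cluster Lag3 was at 87.3 CPM early and 82.0 medium, and in the Spp1-led cluster at 28.2 and 54.9. Cd47 was higher at large than at medium in each of the 3 clusters, at 187 against 164 (Cxcl9-led), 139 against 110 (Spp1-led) and 390 against 376 CPM (Ccr2-led), opposite to the class as a whole. The counting intervals of all 4 ratios over all runs excluded no change, but each stage was 1 tumor sample and the difference between the classes was not tested. Technical libraries with at least 50 cells overlapped between stages for Lag3 in microglia-like cells (48.9 to 108 CPM early, 53.0 to 89.4 medium). Lag3 in macrophage or monocyte-like cells (34.8 to 56.9, 52.4 to 74.5) and Cd47 in microglia-like cells (133 to 199 medium, 189 to 192 large) overlapped too. Cd47 in macrophage or monocyte-like cells did not, at 172 to 268 medium and 142 to 170 large.

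The 281 cells of the T cell-like clusters with myeloid RNA enter no comparison between classes, apart from an alternative that adds them to the T cell-like class. Their levels pooled over the samples, in CPM, were Vsir at 576, Sirpa at 379, Lgals9 at 296, Pvr at 102, Havcr2 at 99.2 and Lag3 at 83.2. These clusters were set apart from T cell-like cells by microglia or macrophage markers. Higher levels of myeloid genes than in T cell-like cells were therefore tied to that choice, and no difference is read from them. The Lag3 level of T cell-like cells in the medium sample, 83.8, was as high as that pooled value.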

How the results depend on the processing

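Of the fold changes of the 10 genes under the alternatives, 638 kept their side of the threshold, 35 lost it, 26 gained it and 0 reversed. The calls on Vsir, Sirpa and Havcr2 against T cell-like and tumor cells held throughout. Settings with 1 cell per barcode, the highest doublet scores removed, the T cell-like clusters with myeloid RNA included or the Cxcl9-led cluster left out were chosen after seeing the data. NK cell-like cells (49), Tigit (at most 8 UMIs in a class) and the early tumor sum (55 cells) had few counts. The cause of the changes below was not tested. Counts of the 10 genes below cover only those tested in each setting. They describe how the calls moved. Where the share of all genes called is not beside them, they are not a result about these genes.

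Against NK cell-like cells, 1329 genes were higher and 352 lower. The higher count was 433 with 1 cell per barcode, 814 with DESeq2, 826 with cells classed 1 by 1, 555 with doublets kept, 466 with library sizes alone, 857 with relative log expression factors, 705 with these classes fitted alone and 498 to 846 with a sample left out. The lower count was 212, 667, 208 (doublets kept), 876 (library sizes alone), 174 (fitted alone) and 209 to 397 (a sample left out), the first pair being 1 cell per barcode and DESeq2. Of the 10 genes, 5 were higher with every gene tested and 3 to 5 with a sample left out. Those lower numbered 0 with DESeq2 or fitted alone, 2 with library sizes alone and 0 to 1 with a sample left out.

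Against T cell-like cells, 1 of the 10 genes instead of 2 was lower with 1 cell per barcode, DESeq2, relative log expression factors, every gene tested, no Cxcl9-led cluster, no replicate block or any sample left out (1 to 1). Against macrophage or monocyte-like cells (476 higher, 915 lower) the higher count was 1167 with cells classed 1 by 1, 740 with library sizes alone, 735 with relative log expression factors, 1207 fitted alone, 1005 with the highest doublet scores removed and 206 to 400 with a sample left out. The lower count was 1598 fitted alone, 1654 with the highest doublet scores removed and 420 to 728 with a sample left out. Of the 10 genes, 5 were higher and 2 lower with cells classed 1 by 1, 3 higher fitted alone or with the highest doublet scores removed, 2 higher without the Cxcl9-led cluster, and 0 to 1 in each direction with a sample left out. Against tumor clusters (2868 higher, 3018 lower) the lower count was 4817 with library sizes alone, and with a sample left out the counts were 1809 to 2948 and 1698 to 3351.

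Library sizes alone moved the median log2 fold change of all genes from -0.04 to -0.40 between sorts, from -0.01 to -0.49 against tumor clusters, from 1.51 to 0.67 against NK cell-like cells, from 0.19 to 0.06 against T cell-like cells and from -0.01 to 0.15 against macrophage or monocyte-like cells. The higher and lower calls became 2589 and 6559 between sorts (3759 and 4744 with TMM factors), 1921 and 4817 against tumor clusters, 466 and 876 against NK cell-like cells and 740 and 737 against macrophage or monocyte-like cells. Without the replicate block 6 of those of the 10 genes that were tested were higher in the CD45+ sort (7 with it, Nectin2 being lost), 4 higher and 1 lower than in T cell-like cells, and 5 higher than in tumor clusters. The share of all genes called without the block is not given here.

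The number of the 10 genes whose stage interval excluded no change was 5 for each pair of stages in both classes. The share over all genes was not computed, and the intervals cover counting error only. The count is therefore not a result about these genes. In macrophage or monocyte-like cells it was 3 for large against early (thinned cells, run 2 or run 3), 2 (thinned) or 3 (run 1 or run 3) for large against medium, and 3 (thinned) or 2 (cells classed 1 by 1) for medium against early. In microglia-like cells it was 2 (thinned) or 3 (run 3), 1 (cells classed 1 by 1) or 3 (run 2 or run 3), and 3 (thinned or run 2) or 2 (run 1) for the same pairs. Log2 ratios that reversed were those of Vsir in macrophage or monocyte-like cells for large against early (0.31 with cells classed 1 by 1, -0.22 otherwise), Havcr2 there for large against medium (-0.021 within run 1, 0.32 over all runs), Pvr there for medium against early (0.034 thinned, -0.45 otherwise) and Lag3 in microglia-like cells for medium against early (0.65 within run 1, -0.30 over all runs).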
